A study of Homo sapiens with 2 samples.

Results

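The H3-K36 demethylases are the symbols that the authors' deposited GO table enters under the term histone demethylase activity (H3-K36 specific), among genes with peaks in RNA immunoprecipitation and sequencing for ALKBH5. There are 10 of them, on 9 gene identifiers, out of 5614 symbols in the GO and KEGG tables and 5851 in all 3 deposited tables. ALKBH5 removes the methyl group of N6-methyladenosine from RNA. The cells were HL-60, a human leukaemia cell line of promyelocytic type. Lysate was divided into an input part, a part for an anti-ALKBH5 antibody and a part for rabbit IgG. The labels hold 2 libraries of HL60 cells, 1 named Ctrl_input and 1 named Ctrl_ip, both with the genotype entry ALKBH5, which the labels do not explain. The titles contradict these library names, with IP and input exchanged; the groups follow the library names. The tables hold no value per library, so no count below depends on that choice, and a gene is described as listed or not listed. Which library the authors took as the immunoprecipitate when peaks were called cannot be told from the labels.

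Lysine K36 of histone H3 is methylated over the bodies of transcribed genes, where the mark is bound by proteins of transcription, splicing and DNA repair. Enzymes with a Jumonji C (JmjC) domain take the methyl groups off with iron, oxygen and 2-oxoglutarate. ALKBH5 and FTO use the same cofactors on RNA, in a related oxygenase fold. The values below concern the genes of these enzymes among the authors' genes with peaks, not the enzymes' activity or the histone mark.

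The members were chosen by this term, so its own values are a description. In the authors' deposited table the term had 10 entries against a background number of 10, a rich factor of 3.0, an unadjusted p of 0.0355 and a corrected p of 0.957. The rich factor is the number of entries over the background number, divided by a common share, here 33.3%. The process term histone H3-K36 demethylation held the same 10 entries, with the same p-values in the authors' deposited table, and so adds no further gene. This p was shared by 6 terms of the GO table; the largest p of any of its 311 listed terms was 0.0489 in the authors' deposited table. Of those 311 terms 38 had a corrected p under 0.05, and the H3-K36 terms were not among them.

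The 10 entries did not stand for 10 genes. RP11-146B14.1, a clone-type name with no match in the RefSeq gene table, carried the identifier 23081, which is that of KDM4C, and KDM4C was entered beside it. Both symbols had the same 8 terms. Counted by identifier, the term had 9 entries. The tables do not say whether the background number of 10 counts symbols or identifiers, so no share of the background is given for the 9. The same gap was common: 20 GO terms had as many entries as the background number, 19 of them on fewer identifiers than entries, and no GO or KEGG term had more entries than that number. In GO and KEGG together, 668 symbols shared an identifier with another symbol, on 291 identifiers, and 277 of those symbols had no RefSeq match.

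The KDM2 enzymes, which act on the lower methylation states of H3-K36 and bind unmethylated CpG DNA through a CXXC zinc finger, were both entered. KDM2A (identifier 22992) lies on chromosome 11 from 67119263 to 67258082 (GRCh38.p14, as for every position here). It had 4 terms, the fewest of the members, and was the member entered under double-strand break repair via nonhomologous end joining. KDM2B (84678), which recruits a Polycomb repressive complex to CpG islands, lies on chromosome 12 from 121408461 to 121582279. KDM2B had 8 terms, with DNA binding, chromosome, nucleolus and negative regulation of neuron apoptotic process among them. Beyond the H3-K36 terms this pair shared 1 term, nucleoplasm, of the 7 that either had.

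The KDM4 enzymes act on the higher methylation states of H3-K36 and also on H3-K9. KDM4A (9682), on chromosome 1 from 43650149 to 43705518, had 10 terms. They included methylated histone binding, viral process, ubiquitin protein ligase binding and negative regulation of autophagy. KDM4B (23030), on chromosome 19 from 4969113 to 5153598, had 6 terms. KDM4C (23081), on chromosome 9 from 6720863 to 7175648, had 8, with chromatin binding and enzyme binding. These 3 genes, with RP11-146B14.1, were the members entered under chromatin remodeling and under histone methyltransferase complex. KDM4B and KDM4C had the most similar term sets of all members with different identifiers: 4 of the 6 terms of either were shared, outside the H3-K36 terms. KDM4D, KDM4E and KDM4F, further genes of this family, were not listed in any table.

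PHF8 (23133), a PHD finger demethylase better known for H3-K9 and H4-K20, lies on chromosome X from 53936680 to 54048936. It had 9 terms, among them nuclear membrane, methylated histone binding and G1/S transition of mitotic cell cycle. KDM8 (79831), also called JMJD5, lies on chromosome 16 from 27203526 to 27221768. Its 10 terms included cytosol, chromosome, protein destabilization and G2/M transition of mitotic cell cycle. The G1/S and G2/M terms thus held different members, PHF8 and KDM8.

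The remaining entries carry older names of the ribosomal oxygenases, which hydroxylate histidines of ribosomal proteins and for which histone demethylation has also been described. C14orf169 is the current RIOX1 (79697), also called NO66, on chromosome 14 from 73490933 to 73493394. At 2.46 kb it was the shortest member gene, and it had 5 terms. MINA is the current RIOX2 (84864), on chromosome 3 from 97941818 to 97972431, with 6 terms, among them cytosol and transcription corepressor activity. Both were entered under nucleolus, the site of ribosome assembly, together with KDM2B and PHF8.

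**Figure D1:**
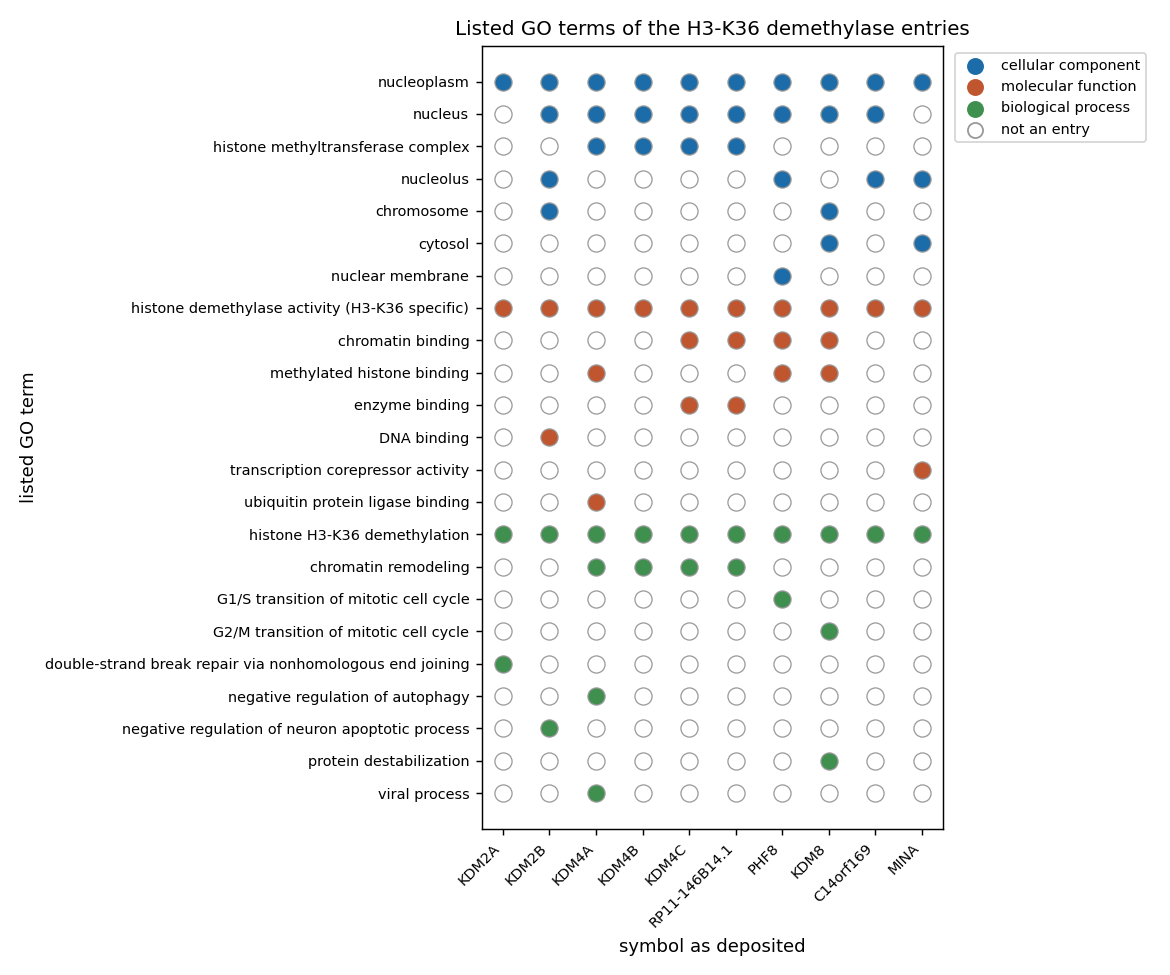
Each column is an entry of the H3-K36 demethylase term and each row 1 of the 23 listed GO terms with a member; a filled circle marks an entry, coloured by GO branch. The KDM4 genes share chromatin remodeling and histone methyltransferase complex, and all 10 entries fall under nucleoplasm.

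In all, 23 GO terms held a member, of which 12 held 1 member gene. All 10 entries were under nucleoplasm, a term that held 34.5% of all GO or KEGG symbols, and 8 were under nucleus, which held 41.3%. KDM2A and MINA were the exceptions for nucleus. Of the 23 terms 9 had a corrected p under 0.05 in the authors' deposited table. Nucleoplasm (3.05e-20), cytosol (5.90e-11) and nucleolus (1.15e-07) had the smallest in the authors' deposited table, and chromatin binding, with KDM4C, RP11-146B14.1, PHF8 and KDM8, had 0.0477. Chromatin remodeling (0.305), histone methyltransferase complex (0.505) and methylated histone binding (0.800) did not reach 0.05 in the authors' deposited table.

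Members had 4 to 10 listed terms, with a median of 8, against a median of 4 and a range of 1 to 40 over all GO or KEGG symbols. The H3-K36 terms gave each member 2 of these by the way members were chosen. Without them the median was 6 and the range 2 to 8. No member was an entry of any of the 38 listed KEGG pathways, as against 1266 of the 5614 symbols. A gene has more terms where its annotation is richer. Once a gene is listed, these counts follow from its annotation and from which terms were listed. They do not measure its own peaks.

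**Figure D2:**
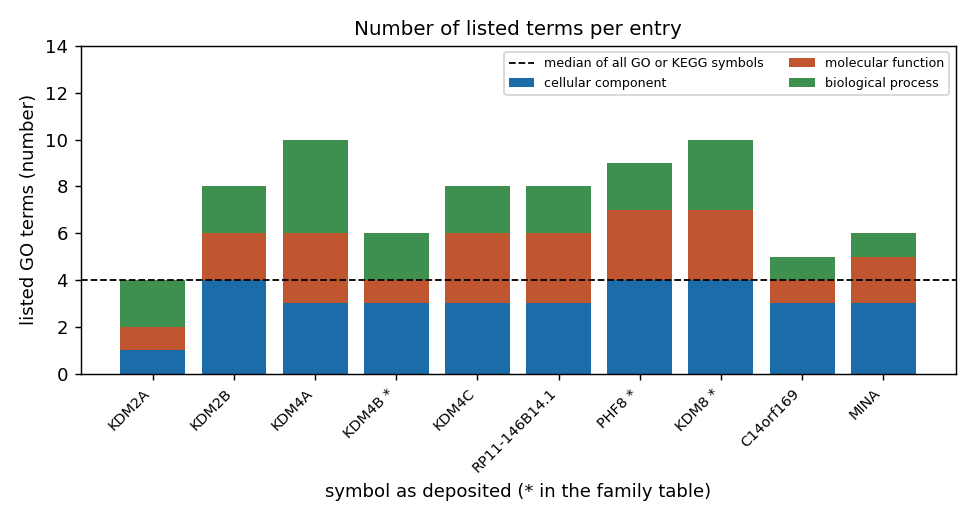
Bars give the number of listed GO terms of each entry, split by GO branch, and the dashed line is the median of all GO or KEGG symbols (4). KDM4A and KDM8 reach 10 and KDM2A has 4; an asterisk marks the 3 entries in the family table.

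Among the 36 pairs of members with different identifiers, the share of terms in common (Jaccard index, shared terms over terms of either, without the H3-K36 terms) had a median of 0.226. It ran from 0.0909 for KDM4A and MINA to 0.667 for KDM4B and KDM4C. C14orf169 was closer to KDM2B (0.5, 3 of 6 terms) than to MINA (0.4, 2 of 5), its fellow ribosomal oxygenase. For symbols outside the members the index was averaged over the 10 entries, here with the H3-K36 terms kept, so it is not the same measure. JARID2 (0.302) and KDM6B (0.301), both JmjC proteins, had the highest means. ETV4, HIRIP3 and UBLCP1 followed at 0.285, tied with ZBTB11 and ZBTB11-AS1; those 5 had nucleolus, nucleoplasm and nucleus as their only listed GO terms. These similarities are over terms, not over levels. They compare the annotation of genes that were already listed and hold no measure of the peaks.

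The family table sets gene symbols beside RNA-binding protein families, in a way the sources used here do not describe. RRM is the RNA recognition motif, CSD the cold shock domain, PUF the Pumilio family and CCHC ZF,RRM a family that joins a zinc knuckle with an RRM. Of the 10 entries KDM4B, KDM8 and PHF8 were in this table (30%, exact 95% interval 6.67 to 65.2%). Among all GO or KEGG symbols 19.8% were, which lies within that wide interval, and a difference from the background was not tested. The interval counts KDM4C and RP11-146B14.1, which share an identifier, as separate entries. By identifier the count was 3 of 9 (33.3%). Of all protein-coding genes, listed or not, 6.14% were in the family table. KDM2A, KDM2B, KDM4A, KDM4C, RP11-146B14.1, C14orf169 and MINA were not in it, also under the current names RIOX1 and RIOX2.

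The 3 paired members had the same pairings: RRM, CSD and PUF, and not CCHC ZF,RRM. Background shares among GO or KEGG symbols were 19.8% for RRM, 19.7% for CSD, 17.5% for PUF and 13.4% for CCHC ZF,RRM. Of the 1111 paired GO or KEGG symbols 24.7% had exactly RRM, CSD and PUF, and 63.7% had all 4 families. With 0 of 10 entries paired, the interval for CCHC ZF,RRM ran up to 30.8% and held the background share. The histone demethylases outside the term that were in the table, KDM3B and KDM6B, were paired with all 4 families. So were the other genes in it from the lists below, WHSC1, DNMT3A, MORF4L1, BCORL1 and PLA2G4B, which makes 7 of 7. This contrast was seen after the values were known and was not tested. KDM4C, the nearest member to KDM4B by terms, was not paired.

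**Figure D3:**
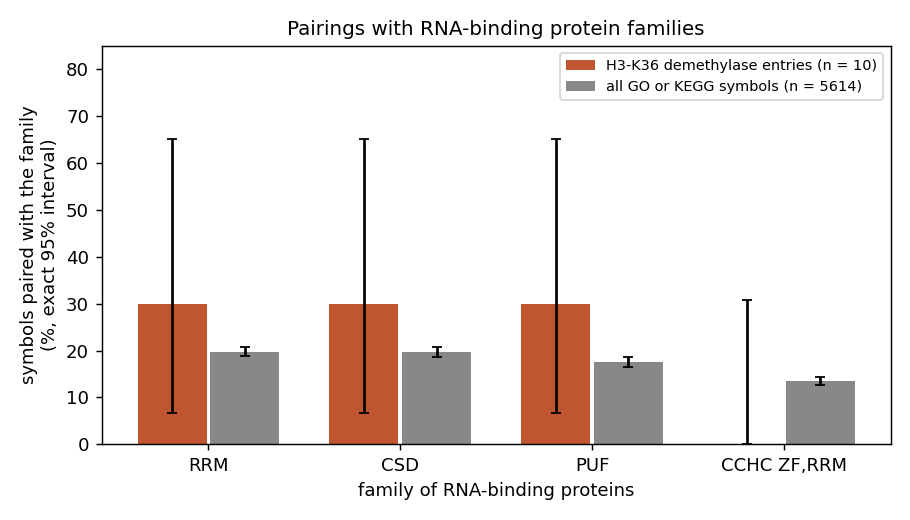
Bars give the percentage of the 10 H3-K36 demethylase entries and of the 5614 GO or KEGG symbols paired with each family of RNA-binding proteins; lines are exact 95% intervals, which cover counting error only. KDM4B, KDM8 and PHF8 make up each 30% bar, no entry is paired with CCHC ZF,RRM, and every interval of the entries holds the background share.

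Histone demethylases of other specificities were listed as well. Of the 26 genes for histone lysine demethylases and close relatives, 18 were listed; 9 of these are the members, whose listing is given by the rule. Of the 17 outside the term 9 were listed (52.9%, exact 95% interval 27.8 to 77.0%), against 26.9% of all protein-coding genes. They were KDM1A, the flavin-dependent demethylase of H3-K4, KDM3A, KDM3B and JMJD1C of the H3-K9 group, KDM5A, KDM5B and KDM5C of the H3-K4 group, and KDM6A and KDM6B of the H3-K27 group. KDM1B, KDM4D, KDM4E, KDM4F, KDM5D, UTY, KDM7A and PHF2 were not listed. Of these, KDM5D and UTY lie on chromosome Y. Whether the cells carry that chromosome was not examined, and both genes stay in the count. All 9 listed genes were entries of nucleoplasm, a term with 1939 entries on a background of 3630 (53.4%) by the counts of the authors' deposited table. The background of all protein-coding genes was not matched to the gene lists for annotation, for nuclear location or for expression in the cells. Histone methyltransferase complex, which had 26 entries, held KDM4A, KDM4B and KDM4C beside KDM5A, KDM5B, KDM5C, KDM6A and JARID2.

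Enzymes that write the mark, or have been reported to, were listed in 6 of 9 cases (66.7%, exact 95% interval 29.9 to 92.5%): NSD1, WHSC1 (now NSD2), WHSC1L1 (now NSD3), SETD2, which makes the trimethyl state, ASH1L and SETD5. The share over all protein-coding genes was 26.9%. All 6 listed genes were entries of nucleoplasm, a term with 53.4% of its background number entered, and no comparison with other nuclear genes was made. All but SETD5, hence 5, were entries of the KEGG pathway Lysine degradation, which held no H3-K36 demethylase. Whether KEGG annotates any H3-K36 demethylase to that pathway was not checked, so no contrast is drawn from this. SMYD2 and SETD3 were not listed. SETMAR was not listed by its own symbol, but its identifier was carried by RP11-499P20.2, in 10 terms. WHSC1 shared double-strand break repair via nonhomologous end joining with KDM2A.

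Proteins that bind methylated H3-K36 or belong to complexes that do were listed in 9 of 14 cases (64.3%, exact 95% interval 35.1 to 87.2%). The share over all protein-coding genes was 26.9%. The listed ones were BRPF1 and BRPF3, the DNA methyltransferases DNMT3A and DNMT3B, GLYR1, MORF4L1, the mismatch repair protein MSH6, and the Polycomb-associated MTF2 and PHF19. All of these but BRPF3 were entries of nucleoplasm, a term with 53.4% of its background number entered. PHF1, PSIP1, ZMYND11 and ZCWPW1 were not. HDGFL2 was not listed by symbol, but CTB-50L17.10 carried its identifier in 1 term. MSH6, MTF2, PHF19 and GLYR1 were under methylated histone binding with KDM4A, PHF8 and KDM8.

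Of 11 further JmjC proteins outside the term 7 were listed (63.6%, exact 95% interval 30.8 to 89.1%): HIF1AN, which hydroxylates the hypoxia factor HIF1A, HSPBAP1, JARID2, JMJD4, JMJD6, JMJD7 and PLA2G4B. JMJD7 and PLA2G4B are neighbours joined by read-through transcripts, so their reads may not be separable, and PLA2G4B itself is a phospholipase. Without PLA2G4B it was 6 of 10 (60%, exact 95% interval 26.2 to 87.8%), an interval that holds the 26.9% of all protein-coding genes. HR, JMJD8, TYW5 and UTY, the last on chromosome Y, were not listed. Of 12 dioxygenases of nucleic acids 4 were listed (33.3%, exact 95% interval 9.92 to 65.1%), namely ALKBH4, ALKBH5, FTO and TET3, a share whose interval holds the 26.9% of all protein-coding genes. ALKBH1, ALKBH2, ALKBH3, ALKBH6, ALKBH7, ALKBH8, TET1 and TET2 were not. ALKBH5 had 8 terms and FTO 4; the terms either shared with a member were nucleoplasm, nucleus and cytosol.

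Partners of KDM2B in its Polycomb complex were listed in 5 of 9 cases (55.6%, exact 95% interval 21.2 to 86.3%): BCOR, BCORL1, RING1, SKP1, which binds the F-box, and the deubiquitinase USP7. PCGF1, RNF2, RYBP and YAF2 were not. The interval holds the background share of 26.9%.

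**Figure D4:**
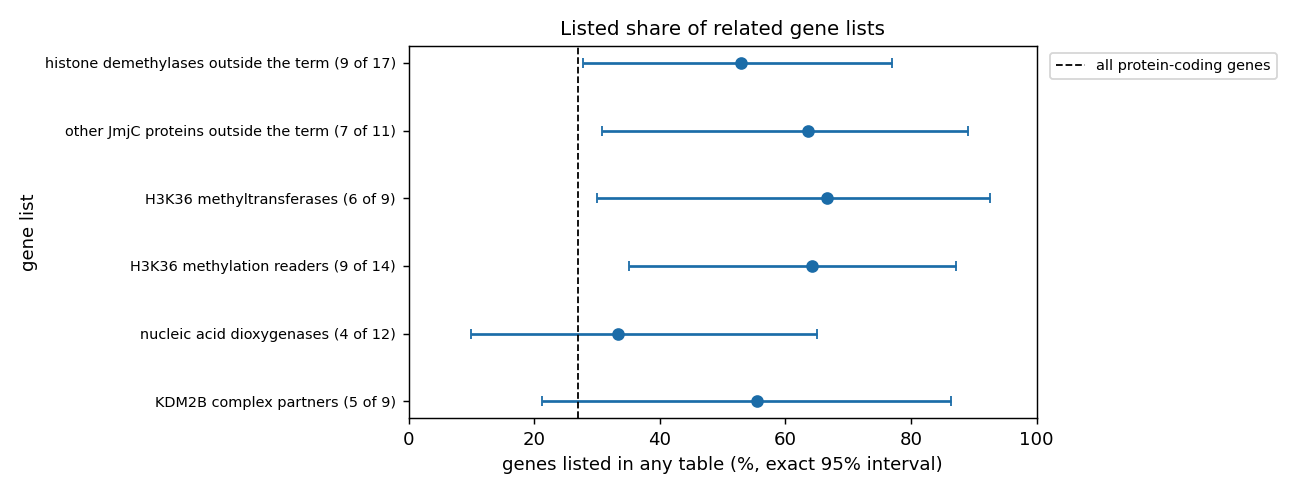
Points give the percentage of each gene list found in any of the 3 tables, lines are exact 95% intervals, and the dashed line is the share of all protein-coding genes (26.9%). UTY counts in both upper lists. The background of all protein-coding genes is not matched to the lists for annotation, for nuclear location or for expression in the cells. The intervals of the dioxygenases of nucleic acids and of the KDM2B partners cross the dashed line, and that of the other JmjC proteins does so without PLA2G4B (26.2 to 87.8%).

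Member genes spanned 2.46 kb (C14orf169) to 455 kb (KDM4C) of genomic length, with a median of 112 kb over the 9 identifiers. Listed protein-coding genes had a median of 35.4 kb. The part of gene length in which genes were listed was not tested. Of 8 promyelocytic markers 4 were listed (MPO, PRTN3, CEBPA and CD33) and ELANE, AZU1, CTSG and CEBPE were not. Of the epithelial markers 3 of 3 were listed (EPCAM, KRT8 and KRT18), of the T cell markers 1 of 4 (CD4, but not CD3D, CD3E or CD8A), and of the B cell and erythroid markers 0 of 3 each, against 26.9% of all protein-coding genes. Listing therefore does not set the promyelocytic markers apart from the epithelial ones. The counts are small, and differences between the marker sets were not tested. Being unlisted does not show that a gene lacked a peak, since GO and KEGG genes appear only through listed terms, whose largest p was 0.0489 in GO and 0.0497 in KEGG in the authors' deposited tables.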

How the data were processed

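The authors deposited 3 tables of the whole series. Per the file headers, the GO and KEGG tables give the authors' counts of entries and a background number per term, a rich factor (a ratio), a p-value, a corrected p-value and the entries as identifier and symbol; the family table pairs symbols with families. Per the submitters' processing notes the build was hg38; aligner, peak caller, thresholds and the use of the IgG control are not given in the sources used here. Read counts and peak positions were not analysed here, so depth is unknown, and with 1 library per group there is no replicate check.

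Entries were parsed with Python 3.11.15 and pandas 2.3.3, checked on simulated tables. Symbols were matched to RefSeq genes (GRCh38.p14) by current and then older symbol; 9 of the 10 members matched. A gene was listed when any table named it. The background was 20056 protein-coding genes, of which 5388 were listed (26.9%). No expression values were used, so genes that the cells do not express were not left out of it. Shares carry exact Clopper-Pearson 95% intervals (SciPy 1.17.1), which cover counting error only. No hypothesis test was made, and the intervals stand beside the background shares as a description. The members and gene lists were chosen with earlier results of these data known. Genes named are all members, all genes of the lists, and the 5 other symbols of highest mean Jaccard index, ties in alphabetical order. Alternatives changed the tables, terms or identifiers that count.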

Additional observations from a re-analysis of the deposited data

How the results depend on the processing

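Counting identifiers gave 9 in place of 10 entries. The median of 8 terms per member fell to 3 when a corrected p under 0.05 in the authors' deposited table was required, as fewer terms then count, while that of all GO or KEGG symbols fell from 4 to 2; it was 7 without the term that chose the members. Pairings stayed at 3 of 10 for RRM, CSD, PUF and older symbols, and were 0 for CCHC ZF,RRM. With the family table alone, which names fewer genes (6.14% of protein-coding genes), 5 of 26 histone demethylases, 1 of 9 methyltransferases, 2 of 14 readers, 1 of 13 further JmjC proteins, 0 of 12 dioxygenases of nucleic acids and 1 of 9 KDM2B partners were listed. The GO and KEGG tables alone, and only terms with a corrected p under 0.05, left the 6 list counts as they were. So did leaving out the term that chose the members, or both H3-K36 terms, for the 18 histone demethylases. For these 18 no such setting, nor that of the corrected p, could change the count. All of them were entries of nucleoplasm, whose corrected p in the authors' deposited table was 3.05e-20. For the other lists the setting of the corrected p could not change the count either. Each of their listed genes was under nucleoplasm, nucleolus, nucleus, cytosol or cytoplasm, terms with a corrected p under 0.05 in the authors' deposited table. Matching by identifier gave 7 methyltransferases and 10 readers. Without PLA2G4B the further JmjC proteins, RIOX1 and RIOX2 included, numbered 8 in place of 9. This matching, the count without PLA2G4B, the count without RP11-146B14.1 and the removal of both H3-K36 terms were chosen after seeing the data. No paired analysis was possible because the tables hold no value per library. With no read counts, what depth limits cannot be given.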
